A study of Homo sapiens with 9 samples.

Results

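The genes described here are 33 genes of the actin cytoskeleton and of the transcription programs that respond to it: serum response factor (SRF) with its actin-sensing cofactors (3 genes), contractile and adhesion genes that SRF is known to drive (17 genes), targets of the coactivator YAP (6 genes) and immediate early genes (7 genes). They were taken from a list of symbols drawn up by known role, with earlier results of these data known, and all 33 were found among 58425 genes matched in the libraries. A gene was tested when enough reads covered it, which left 32 of the 33 among 18444 genes tested. Immediate early gene EGR3 did not reach that count. The human osteosarcoma line U2OS was transfected for 48 hours with 15 nM of an siRNA against dyskerin (siDyskerin), against GAR1 (siGAR1) or of a control siRNA (siControl), and nuclear RNA was sequenced from 3 biological replicates of each, 9 libraries in all. Dyskerin, encoded by DKC1, is the pseudouridine synthase of the H/ACA ribonucleoprotein, and GAR1 is another core protein of that complex. The study asked what loss of either protein does to nuclear RNA. Each gene was silenced under 1 siRNA label in this experiment, so that loss of the protein and other effects of the reagent cannot be told apart.

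Actin is the hub of these genes. Unpolymerized actin binds the cofactors MRTFA and MRTFB and keeps them from SRF, and when filaments are assembled the cofactors are freed, enter the nucleus and activate SRF at a DNA element called the CArG box. SRF is also activated through ternary complex factors of the ELK family downstream of growth factor signals, which is how immediate early genes such as EGR1 and FOS respond within minutes to serum. YAP is held in check by the Hippo kinases, among them LATS1 and LATS2, and when it is free it acts through the TEAD DNA-binding proteins. Many genes, CCN1 and CCN2 among them, answer to both SRF and YAP.

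The estimated reads summed to between 48838756 and 90698675 per library. Overlapping transcripts each took the reads they had in common, so that gene sums compare 1 gene between groups and not 2 genes with each other. Values below are read counts normalized for library size and composition and scaled to the mean library, and a gene passed at an adjusted p under 0.01 by edgeR's quasi-likelihood test over all genes tested. In bulk RNA of this kind, fewer cells with a transcript and less of it per cell cannot be told apart. The silenced genes matched the labels: DKC1 had 3075 to 3124 normalized counts in siDyskerin, against 20777 to 22716 in siControl, and GAR1 had 83.9 to 115 in siGAR1, against 594 to 664 in siControl. One library stood apart: siGAR1 replicate 3 had a score of 23.2 on the third principal component, where the 8 others scored -5.91 to 1.98. With or without it, 4 of 32 members passed for siGAR1 over siControl. Mesenchymal genes VIM, SPARC and RUNX2 were expressed, TWIST1 was at 0 and COL1A2 averaged at most 1.90 normalized counts in any group. The 5 muscle markers, which were checked because muscle shares the contractile genes, summed to 3.80 to 7.07 normalized counts per library in siDyskerin, 19.6 to 32.1 in siGAR1 and 2.69 to 24.7 in siControl, with MYOD1 and MYOG at 0 in each library and MYH11 as the only 1 with enough reads to test. At these few reads MYH11 did not pass in any comparison. Its log2 fold changes were -1.99 for siDyskerin over siControl, 1.04 for siGAR1 over siControl and -3.03 for siDyskerin over siGAR1. The 5 epithelial markers, EPCAM and CDH1 first among them, summed to 334.3 to 408.8 in siDyskerin, 335.3 to 451.2 in siGAR1 and 313.0 to 354.8 in siControl, and none of the 4 tested passed in either knockdown.

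Most of these genes did not pass in any comparison. After dyskerin knockdown 4 of 32 passed, CNN1 and FHL2 higher and ACTG1 and LATS2 lower, where 3.08% of all genes tested were higher and 3.32% lower. After GAR1 knockdown 4 of 32 passed and all 4 were lower, SRF itself with TAGLN, TPM1 and MYL9, where 1.63% of all genes tested were higher and 1.79% lower. Both knockdowns were set against the same siControl libraries. Between the knockdowns 7 of 32 passed, with CNN1, SRF, TAGLN, MYL9 and TPM1 higher and LATS2 and ACTG1 lower in siDyskerin than in siGAR1, where 2.61% of all genes tested were higher and 2.78% lower. In all, 8 members passed in at least 1 comparison and 24 in none. A log2 fold change beyond 1 in either direction was reached by no member that passed after dyskerin knockdown (0.938% of all genes tested), by SRF after GAR1 knockdown (0.282%) and by CNN1 between the knockdowns (0.721%). The median log2 fold change of the 32 members was -0.04 for siDyskerin over siControl, 0.01 for siGAR1 over siControl and -0.03 for siDyskerin over siGAR1, beside 0.00, 0.01 and -0.00 for all genes tested.

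**Figure D1:**
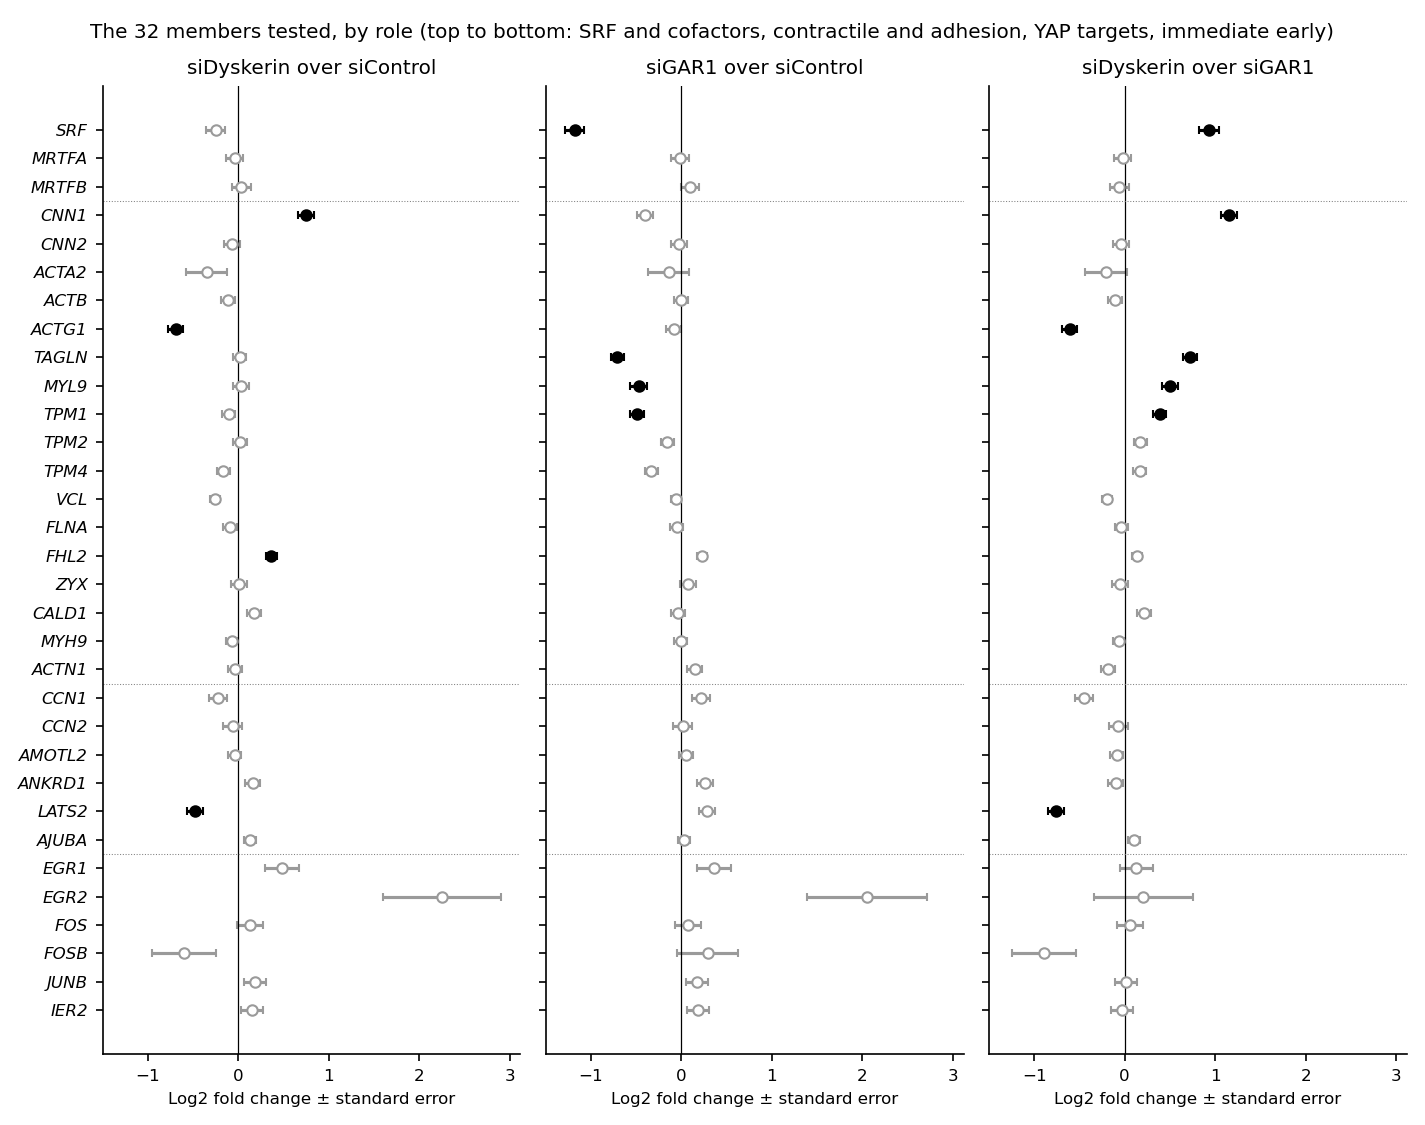
Log2 fold change (horizontal axis) of the 32 members tested, in 3 comparisons, with bars of ± 1 standard error from edgeR (3 libraries per group). Filled points passed at an adjusted p under 0.01 and open points did not; SRF lies at -1.18 for siGAR1 over siControl and CNN1 at 1.15 for siDyskerin over siGAR1.

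SRF (ENSG00000112658.8; GRCh38 chromosome 6, 43171269 to 43181506) encodes the transcription factor at the centre of this program. It had 1085, 933 and 849 normalized counts in the siDyskerin libraries, 532, 491 and 478 in siGAR1, and 1265, 1071 and 1064 in siControl. Every siGAR1 library was thus below every library of the other groups, whereas siDyskerin and siControl overlapped. SRF fell by 1.18 on the log2 scale after GAR1 knockdown (standard error 0.11, adjusted p = 2.7e-05), to 0.442 times its level in siControl. After dyskerin knockdown its log2 fold change was -0.25 (standard error 0.10, adjusted p = 0.15), and the direct comparison of siDyskerin with siGAR1 gave 0.93 (standard error 0.11, adjusted p = 1.0e-04). Both calls held in each of 17 other ways of fitting the data, at -1.23 to -1.10 for siGAR1 over siControl and 0.84 to 1.01 for siDyskerin over siGAR1.

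The SRF promoter itself carries CArG boxes, the letters that SRF binds, and is shown because SRF was the member with the largest fall after GAR1 knockdown. The sequence runs from 250 bases before the transcription start to 50 bases after it, from RefSeq on GRCh38.p14, at chr6:43171019-43171318 on the plus strand, with both matches to the CArG box in capitals, 30 and 10 bases before the start.
SRF promoter: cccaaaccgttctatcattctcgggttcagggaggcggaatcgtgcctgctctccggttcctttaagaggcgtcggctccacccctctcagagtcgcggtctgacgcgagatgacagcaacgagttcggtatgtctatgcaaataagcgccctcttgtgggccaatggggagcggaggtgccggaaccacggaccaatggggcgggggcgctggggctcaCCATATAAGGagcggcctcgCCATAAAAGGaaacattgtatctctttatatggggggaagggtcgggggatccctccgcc

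The cofactors that link SRF to actin did not pass in any comparison. MRTFA had 2638, 1980 and 2485 normalized counts in siDyskerin, 2401, 2423 and 2387 in siGAR1, and 2598, 2292 and 2389 in siControl. MRTFB had 3928, 3775 and 3888 in siDyskerin, 3756, 3432 and 4903 in siGAR1, and 3644, 3793 and 3883 in siControl. The groups overlapped for both genes, and the highest MRTFB value was that of siGAR1 replicate 3. Log2 fold changes of MRTFA and MRTFB were -0.04 and 0.03 for siDyskerin over siControl (standard error 0.10 each) and -0.01 and 0.09 for siGAR1 over siControl (standard error 0.10 each).

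Among the 17 contractile and adhesion genes, CNN1 (ENSG00000130176.8; chromosome 19, 11538767 to 11550323) moved apart most between the knockdowns. It encodes calponin, an actin-binding protein of smooth muscle that dampens myosin activity. CNN1 had 2482, 2217 and 2137 normalized counts in siDyskerin, 948, 1047 and 1082 in siGAR1, and 1437, 1268 and 1363 in siControl. No library of one group reached into another: siDyskerin was highest, siControl between and siGAR1 lowest. CNN1 rose by 0.75 on the log2 scale after dyskerin knockdown (standard error 0.09, adjusted p = 6.4e-05), to 1.68 times its level in siControl. After GAR1 knockdown its log2 fold change was -0.40 (standard error 0.09, adjusted p = 0.011), just outside the threshold. That value passed with DESeq2 (adjusted p = 2.0e-04) and without siDyskerin replicate 1 (adjusted p = 0.0076), a library that enters this comparison only through the shared estimate of spread. It also passed with DESeq2's size factors (0.0097), no count filter (6.5e-04), protein-coding transcripts (0.0055) and the most-read transcript (0.0052), and in no other alternative. The direct comparison of siDyskerin with siGAR1 gave 1.15 (standard error 0.09, adjusted p = 3.0e-06), a ratio of 2.22.

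TAGLN, MYL9 and TPM1 had lower counts after GAR1 knockdown. TAGLN (ENSG00000149591.17; chromosome 11, 117199370 to 117207464), which encodes the actin cross-linking protein transgelin, had 9806, 9407 and 8829 normalized counts in siDyskerin, 5295, 6013 and 5668 in siGAR1, and 9651, 9638 and 8425 in siControl. All siGAR1 libraries lay below all others, and siDyskerin and siControl overlapped. TAGLN fell by 0.71 on the log2 scale after GAR1 knockdown (standard error 0.07, adjusted p = 7.3e-05) and was at 0.02 after dyskerin knockdown (adjusted p = 0.92), with 0.72 between the knockdowns (adjusted p = 3.5e-05). Of the 31-base words of its most-read transcript, 65.7% also occur in a transcript of another gene, ENSG00000280143, so reads of the 2 genes cannot be told apart there.

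MYL9 (ENSG00000101335.10; chromosome 20, 36541497 to 36551447), which encodes the regulatory light chain that switches on smooth muscle and non-muscle myosin when phosphorylated, had 2562, 2366 and 2312 normalized counts in siDyskerin, 1562, 1751 and 1805 in siGAR1, and 2686, 2195 and 2212 in siControl. The siGAR1 libraries again lay below the rest. MYL9 fell by 0.47 on the log2 scale after GAR1 knockdown (standard error 0.09, adjusted p = 0.0056), and the direct comparison of siDyskerin with siGAR1 gave 0.50 (standard error 0.09, adjusted p = 0.0029). Both calls depended on single libraries. The first ended without siGAR1 replicate 1 (adjusted p = 0.032), siGAR1 replicate 2 (0.017) or siControl replicate 1 (0.019), and in a fit of those 2 groups alone (0.012). The second ended without siDyskerin replicate 1 or 2 or siGAR1 replicate 1 or 2 (adjusted p = 0.010 to 0.020).

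TPM1 (ENSG00000140416.25; chromosome 15, 63042620 to 63071915) encodes a tropomyosin, a coiled coil that lies along actin filaments and governs access of myosin. It had 29263, 30991 and 30890 normalized counts in siDyskerin, 21289, 22709 and 25791 in siGAR1, and 35169, 31347 and 31402 in siControl. The siGAR1 libraries were lowest and the siDyskerin libraries lay just under siControl. TPM1 fell by 0.49 on the log2 scale after GAR1 knockdown (standard error 0.07, adjusted p = 0.0012), a call that held without each library in turn, and it was at -0.10 after dyskerin knockdown (adjusted p = 0.42). The difference of 0.39 between the knockdowns (adjusted p = 0.0041) was lost without siDyskerin replicate 2 or 3 or siGAR1 replicate 1 or 2 (adjusted p = 0.019 to 0.024) and with counts scaled by transcript length (0.011). The other tropomyosins did not pass. TPM4 had a log2 fold change of -0.33 for siGAR1 over siControl (adjusted p = 0.012), which passed without siGAR1 replicate 2 (adjusted p = 0.0055) and with DESeq2 (3.7e-04), and TPM2 had -0.15. The TPM4 value also passed with no count filter (4.6e-04), the most-read transcript (0.0026) and a replicate block (0.0053), and in no other alternative. TPM4 shares 44.4% of the 31-base words of its most-read transcript with other genes, its pseudogene TPM4P2 first among them.

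ACTB and ACTG1 encode the cytoplasmic actins, which are near-identical proteins, and of these genes only ACTG1 passed. ACTG1 (ENSG00000184009.13; chromosome 17, 81509413 to 81523847), gamma-actin, had 130686, 113306 and 107023 normalized counts in siDyskerin, 185266, 174394 and 175077 in siGAR1, and 212769, 176731 and 176988 in siControl. The siDyskerin libraries lay below all others, while siGAR1 and siControl overlapped. ACTG1 fell by 0.69 on the log2 scale after dyskerin knockdown (standard error 0.08, adjusted p = 9.8e-05), to 0.62 times its level in siControl, and was at -0.08 after GAR1 knockdown (adjusted p = 0.59). Between the knockdowns the value was -0.61 (standard error 0.08, adjusted p = 3.7e-04).

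ACTB, beta-actin, had 230216, 201567 and 197924 normalized counts in siDyskerin, 215673, 220540 and 241048 in siGAR1, and 251372, 207697 and 219598 in siControl, and its groups overlapped. Its log2 fold changes were -0.11 for siDyskerin over siControl (standard error 0.08, adjusted p = 0.43) and -0.00 for siGAR1 over siControl (adjusted p = 0.99). Counts of both actins are uncertain to the extent that their reads also fit other genes. Of the 31-base words of the most-read transcript, 20.8% for ACTG1 and 23.0% for ACTB occur in transcripts of other genes, pseudogenes included. The ACTG1 transcript shares 4.02% of its words with ACTB, and the ACTB transcript shares most, 8.40%, with the pseudogene ACTBP2. The difference between the changes of the 2 actins was not tested. The smooth muscle actin ACTA2 had few reads, at 41.8 to 83.4 normalized counts over the 9 libraries, and did not pass.

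FHL2 (ENSG00000115641.19; chromosome 2, 105357712 to 105438513) encodes a LIM-domain protein that binds SRF, actin-linked proteins and integrins. It had 26090, 25334 and 25221 normalized counts in siDyskerin, 22797, 24424 and 22372 in siGAR1, and 20402, 19497 and 19479 in siControl, with no overlap between any of the groups. FHL2 rose by 0.37 on the log2 scale after dyskerin knockdown (standard error 0.06, adjusted p = 5.9e-04). After GAR1 knockdown it had 0.23 (standard error 0.06, adjusted p = 0.022), which passed with DESeq2 (adjusted p = 0.0014), and the difference between the knockdowns, 0.14, did not pass (adjusted p = 0.13). VCL, vinculin of the focal adhesion, had -0.25 for siDyskerin over siControl (standard error 0.06, adjusted p = 0.011). Vinculin passed without siGAR1 replicate 3 (adjusted p = 0.0025), with DESeq2 (0.000697) and in a fit of those 2 groups alone (0.0061). It also passed with no count filter (0.0058), protein-coding transcripts (0.0075), the most-read transcript (0.0037) and a replicate block (0.0087), and in no other alternative.

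The remaining contractile and adhesion genes stayed near their siControl level. CNN2, FLNA (filamin A), ZYX (zyxin), CALD1 (caldesmon), MYH9 (non-muscle myosin heavy chain) and ACTN1 (alpha-actinin) had log2 fold changes of -0.09 to 0.17 for siDyskerin over siControl and of -0.05 to 0.15 for siGAR1 over siControl, and none passed. CALD1 was higher in every siDyskerin library (36826, 39375 and 37847 normalized counts) than in any siControl library (29559, 36683 and 35038), with an adjusted p = 0.18. Of the 17 genes of this group, 3 passed after dyskerin knockdown (2 higher, 1 lower; median -0.07), 3 after GAR1 knockdown (all lower; median -0.06) and 5 between the knockdowns (4 higher and 1 lower in siDyskerin; median -0.04). Of all genes tested, 6.40%, 3.42% and 5.39% passed in the same order.

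**Figure D2:**
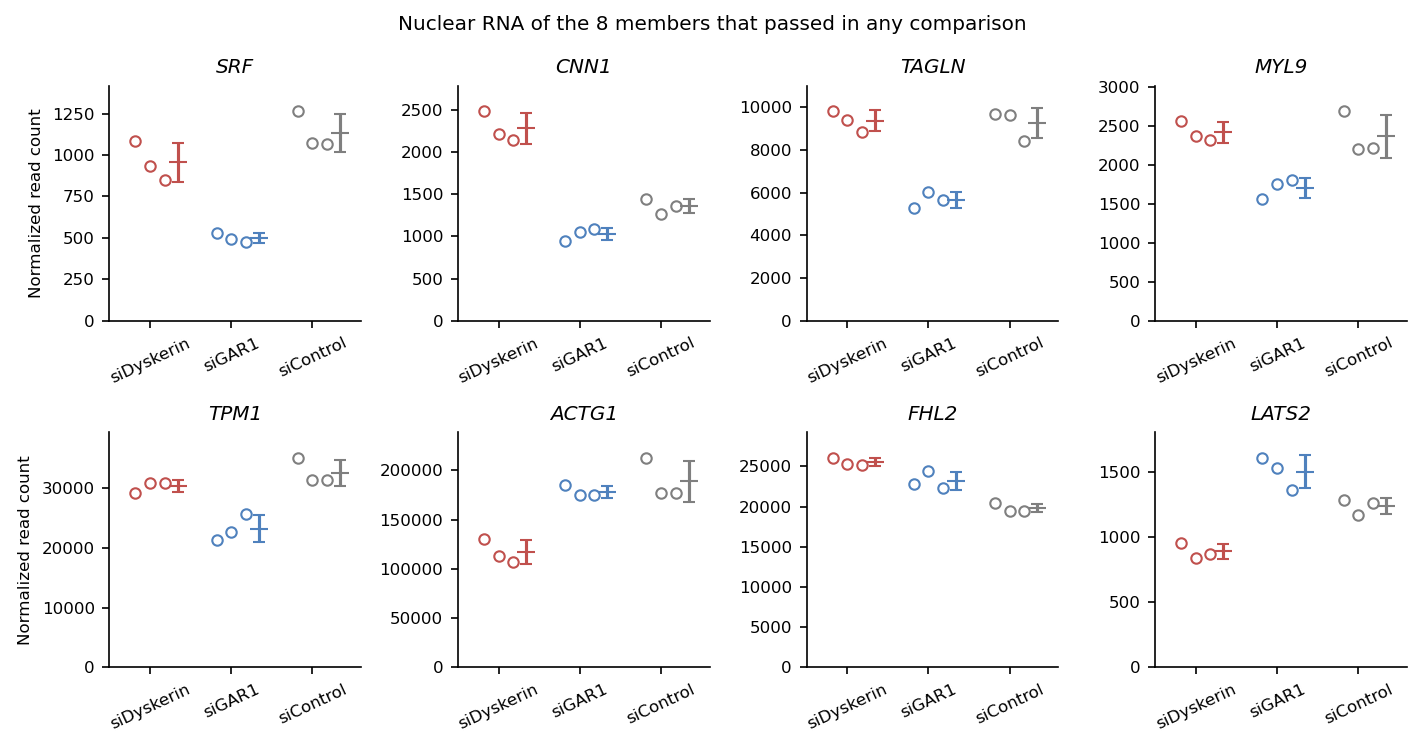
Normalized read counts (vertical axes, from 0) of the 8 members that passed in any comparison, in siDyskerin, siGAR1 and siControl. Each circle stands for a library, and whiskers beside the circles give the mean ± SD (n = 3); SRF, TAGLN, MYL9 and TPM1 are lowest in siGAR1, ACTG1 and LATS2 lowest in siDyskerin, and CNN1 and FHL2 highest in siDyskerin.

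Of the 6 YAP targets, only LATS2 passed. LATS2 (ENSG00000150457.9; chromosome 13, 20973036 to 21061586) encodes a Hippo kinase that phosphorylates and restrains YAP, and is itself induced by YAP. It had 959, 844 and 874 normalized counts in siDyskerin, 1613, 1537 and 1366 in siGAR1, and 1286, 1174 and 1263 in siControl. The order was the reverse of CNN1: siDyskerin was lowest, siControl between and siGAR1 highest, with no overlap. LATS2 fell by 0.48 on the log2 scale after dyskerin knockdown (standard error 0.09, adjusted p = 0.0025), was at 0.28 after GAR1 knockdown (standard error 0.09, adjusted p = 0.061), and at -0.75 between the knockdowns (standard error 0.09, adjusted p = 1.0e-04). The call after dyskerin knockdown ended without siDyskerin replicate 2 or 3 or siControl replicate 1 or 3 (adjusted p = 0.010 to 0.017) and with counts scaled by transcript length (0.051), while the call between the knockdowns held in each of the 17 alternatives.

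The standard readouts of YAP activity, CCN1 and CCN2, which encode secreted matrix-associated proteins, did not pass against siControl. CCN1 had 3588, 3244 and 3070 normalized counts in siDyskerin, 4235, 4268 and 4991 in siGAR1, and 4469, 3589 and 3504 in siControl, so that siDyskerin and siGAR1 did not overlap and siControl overlapped with both. Its log2 fold changes were -0.22 for siDyskerin over siControl (adjusted p = 0.18) and 0.22 for siGAR1 over siControl (adjusted p = 0.19). Between the knockdowns CCN1 had -0.45 (standard error 0.10, adjusted p = 0.011), which passed with DESeq2 (5.2e-04) and without siControl replicate 1 (0.0026). It also passed with no count filter (1.6e-05), counts scaled by transcript length (0.0080), protein-coding transcripts (0.0077) and the most-read transcript (0.0015). The same held in a fit of those 2 groups alone (0.0053) and with a replicate block (0.0096), and in no other alternative. CCN2 had -0.06 and 0.01 against siControl. AMOTL2 (a scaffold that holds YAP at junctions), ANKRD1 (a cardiac ankyrin repeat protein) and AJUBA (a LIM protein that binds LATS kinases) had -0.04, 0.16 and 0.13 for siDyskerin over siControl and 0.05, 0.26 and 0.03 for siGAR1 over siControl, and none passed. The medians of the 6 were -0.05 for siDyskerin over siControl, 0.14 for siGAR1 over siControl and -0.09 for siDyskerin over siGAR1.

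No immediate early gene passed in any comparison in the edgeR fit of all 9 libraries. At an unadjusted p under 0.05 the count was 2 of the 6 tested for siDyskerin over siControl, 1 for siGAR1 over siControl and 1 for siDyskerin over siGAR1, where 26.1%, 24.0% and 25.5% of all genes tested reached that value. With no filter on low counts, edgeR gave an adjusted p of 0.0094 for EGR1 and 1.4e-07 for EGR2 after dyskerin knockdown, 9.3e-06 for EGR2 after GAR1 knockdown and 6.0e-05 for FOSB between the knockdowns. The main edgeR fit gave 0.11, 0.036, 0.075 and 0.13 in the same order. EGR2 and FOSB had few reads, and how many of all genes passed without the filter was not counted. EGR1, a zinc finger factor and classical SRF target, had 384, 333 and 365 normalized counts in siDyskerin, 244, 295 and 456 in siGAR1, and 246, 239 and 291 in siControl. Every siDyskerin library was above every siControl library, and siGAR1 replicate 3 was the highest of all. Its log2 fold changes were 0.48 for siDyskerin over siControl (standard error 0.19, adjusted p = 0.11) and 0.36 for siGAR1 over siControl (adjusted p = 0.27).

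EGR2, its paralog, had 51.3, 25.4 and 31.1 normalized counts in siDyskerin, 5.59, 27.3 and 64.1 in siGAR1, and 8.50, 5.38 and 8.59 in siControl. These are few reads, and the siGAR1 libraries ran from the siControl level to the highest value of the 9. The log2 fold change was 2.26 for siDyskerin over siControl (standard error 0.65, adjusted p = 0.036) and 2.05 for siGAR1 over siControl (standard error 0.66, adjusted p = 0.075). The first passed with DESeq2 (adjusted p = 0.0083), in a fit of those 2 groups alone (0.0018) and without siGAR1 replicate 1 (0.0038), and the second without siGAR1 replicate 1 (2.57, adjusted p = 0.0069), while without siGAR1 replicate 3 the second was 1.10 (adjusted p = 0.30). EGR3 had 1, 4 and 1 reads in siDyskerin, 3, 0 and 0 in siGAR1, and 1, 3 and 1 in siControl, too few to compare.

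The AP-1 genes and IER2 overlapped between groups in most pairs. FOS had 935, 759 and 836 normalized counts in siDyskerin, 613, 953 and 864 in siGAR1, and 784, 839 and 678 in siControl. FOSB had 77.9, 156 and 35.4 in siDyskerin, 180, 191 and 145 in siGAR1, and 132, 184 and 104 in siControl. The groups overlapped for both genes. FOSB had a log2 fold change of -0.89 for siDyskerin over siGAR1 (standard error 0.35, adjusted p = 0.13), which passed with no filter on low counts (-0.88, adjusted p = 6.0e-05). JUNB had 461, 397 and 342 in siDyskerin, 379, 407 and 411 in siGAR1, and 369, 374 and 316 in siControl. IER2, a nuclear regulator, had 1909, 1590 and 1492 in siDyskerin, 1530, 1611 and 1958 in siGAR1, and 1711, 1330 and 1449 in siControl. JUNB was higher in every siGAR1 library than in any siControl library, at a log2 fold change of 0.17 (adjusted p = 0.42), and IER2 overlapped throughout. Of the 6 genes tested, 5 had log2 fold changes above 0 for siDyskerin over siControl and 6 for siGAR1 over siControl, with medians of 0.17 and 0.24. The exception was FOSB, at -0.60 for siDyskerin over siControl (adjusted p = 0.32). Of all 18444 genes tested, 9341 and 9466 were above 0 in the same order. None of the 6 passed, both comparisons share the siControl libraries, and a common direction of the group was not tested.

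**Figure D3:**
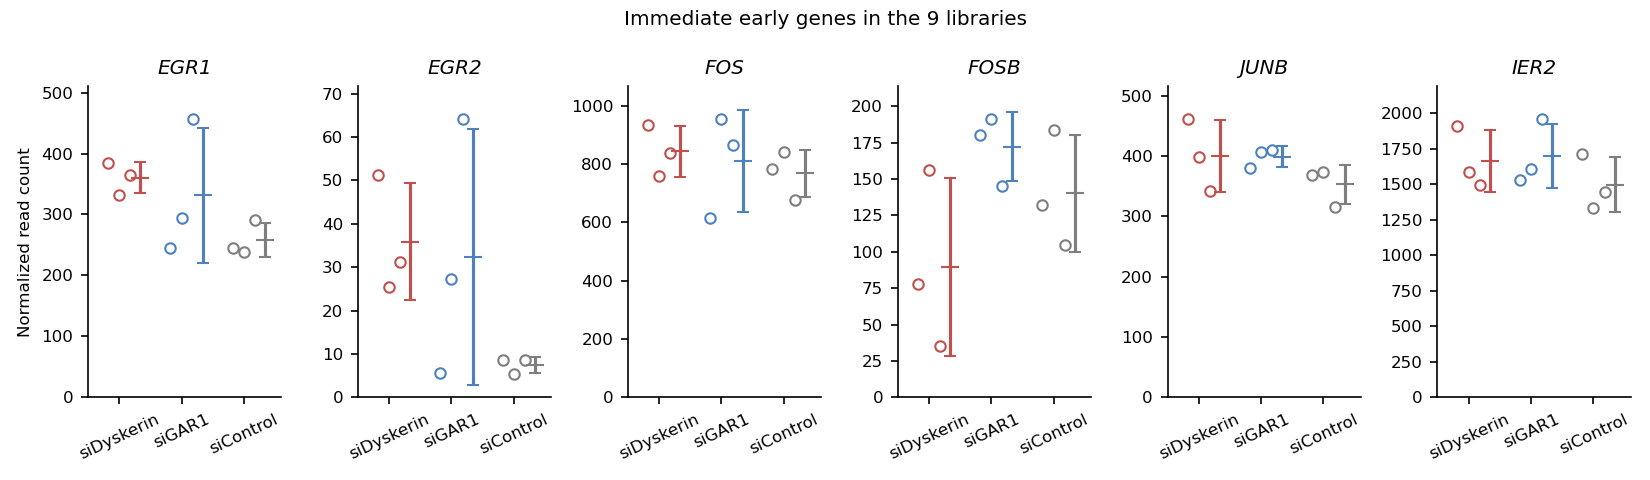
Normalized read counts (vertical axes, from 0) of 6 immediate early genes in siDyskerin, siGAR1 and siControl, with open circles for libraries and the mean ± SD (n = 3) beside them. EGR2 reaches 51.3 in siDyskerin and 64.1 in siGAR1 against at most 8.59 in siControl, and the siGAR1 libraries are spread most for EGR1 and EGR2.

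The transcripts of a gene that passed mostly moved together. Among transcripts with at least 100 normalized counts on average, all 6 of CNN1 were higher in siDyskerin than in siControl (log2 ratios 0.67 to 0.91) and lower in siGAR1 than in siControl (-0.45 to -0.26). All 15 of ACTG1 were lower in siDyskerin than in siControl (-0.72 to -0.64), and all 11 of FHL2 were higher (0.35 to 0.41). After GAR1 knockdown, all 8 of TAGLN (-0.74 to -0.65) and both of MYL9 (-0.49 and -0.46) were lower. The 28 transcripts of TPM1 were all lower in siGAR1 too, over a wider range (-0.91 to -0.37). SRF and LATS2 had 1 such transcript each. These transcripts share reads and are not independent measurements. In a test of transcript usage, which asks whether the mix of transcripts within a gene changed, 0 of 27 members passed in either knockdown (edgeR's diffSpliceDGE), where 0.237% of all genes passed after dyskerin knockdown and 0.19% after GAR1 knockdown. No member reached even an unadjusted p under 0.05, so that this count was 0 of 27 as well. Because overlapping transcripts each took the reads they shared, a change in the mix can be hidden from this test. It therefore cannot show that transcript usage stayed the same.

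Levels were compared between genes per length, as TPM of the most-read transcript of each gene, since sums over transcripts depend on the annotation. ACTB was highest, at 407, 353 and 353 TPM in siDyskerin, 397, 370 and 406 in siGAR1, and 428, 366 and 396 in siControl, for a transcript annotated as retaining an intron. ACTG1 followed at 108, 92.0 and 90.2 TPM in siDyskerin, 155, 138 and 142 in siGAR1, and 167, 145 and 147 in siControl. FLNA came next, and in siDyskerin its 84.3, 66.2 and 75.7 TPM all lay below ACTG1. TPM2, MYH9 and ACTN1 overlapped with each other at 45.5 to 58.5, 46.4 to 57.5 and 46.4 to 57.7 TPM over the 9 libraries, and ANKRD1 reached into the same range.

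SRF stood near the structural genes ZYX and MYL9 in siControl, at a mean of 4.71 TPM beside 5.42 and 6.32. SRF had 4.70, 3.88 and 3.60 TPM in siDyskerin, 2.30, 2.01 and 1.95 in siGAR1, and 5.30, 4.45 and 4.38 in siControl. In siControl SRF thus stood above both MRTFB (1.71 to 1.82 TPM) and MRTFA (1.57 to 1.75 TPM), which overlapped with each other. In siGAR1 the SRF level came near theirs: siGAR1 replicate 3 had 1.95 TPM of SRF and 2.25 of MRTFB. CNN1 had 5.17, 4.47 and 4.53 TPM in siDyskerin, 1.93, 2.10 and 2.13 in siGAR1, and 2.80, 2.52 and 2.78 in siControl, against 9.36 to 11.6 TPM over the 9 libraries for its paralog CNN2. ACTA2, FOSB and EGR2 were at or below 0.309 TPM in each library.

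**Figure D4:**
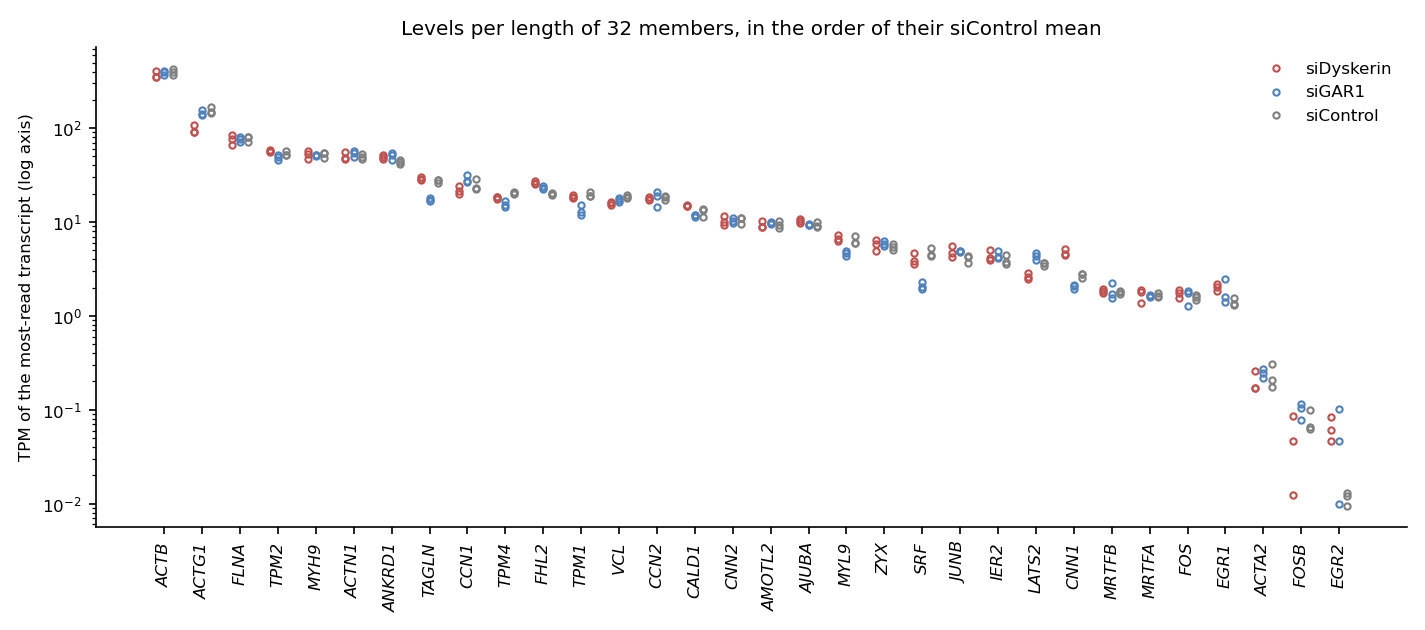
TPM of the most-read transcript (vertical axis, logarithmic) of 32 members in the 9 libraries, ordered by their siControl mean, with EGR3 left out. Each circle is a library; ACTB lies at 353 to 428 TPM and EGR2 at 0.00952 to 0.102 TPM.

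Matches to the CArG box in promoters were looked up for all members. Known SRF and YAP targets were chosen, and such elements are part of how targets are known, so the shares below describe the choice and are no separate finding. RefSeq promoter windows on GRCh38.p14 (250 bases before to 50 after a start, both strands read) were at hand for 28 members, in 51 windows, and not for MYL9, ACTB, TAGLN, CCN1 and EGR3. A CArG box match stood in a window of 9 of the 28 genes (32.1%), against 1.60% of 27305 genes in the whole table. A gene with more windows has more chances of a match. Counted by window, the shares were 21.6% of the 51 windows and 1.29% of 35116 windows in the whole table. Of the 6 passing members with a window, SRF, ACTG1 and FHL2 held a match and CNN1, TPM1 and LATS2 did not. Only exact matches inside these windows were sought, so a gene without one may hold an element farther away or in altered letters. FOS, named above as responding through SRF, held none either. The stretches around the matches outside SRF, with the CArG box in capitals, 20 bases on each side and each written 5′ to 3′ along the gene, show how closely the letters of the element recur.
FHL2, 101 bases before a start, chr2:105438585-105438634, minus strand: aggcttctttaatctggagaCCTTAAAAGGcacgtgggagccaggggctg
FHL2, 59 bases before another start, chr2:105399081-105399130, minus strand: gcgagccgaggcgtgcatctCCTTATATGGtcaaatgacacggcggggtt
ACTG1, 94 bases before the start, chr17:81512864-81512913, minus strand: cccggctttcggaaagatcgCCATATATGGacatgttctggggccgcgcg
EGR1, 105 and 83 bases before the start, chr5:138465354-138465425, plus strand: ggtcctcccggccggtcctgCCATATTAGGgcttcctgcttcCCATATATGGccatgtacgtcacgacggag
EGR2, 71 bases before a start, chr10:62816408-62816457, minus strand: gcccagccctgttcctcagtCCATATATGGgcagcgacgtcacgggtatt
ACTN1, 171 bases before a start, chr14:68977708-68977757, minus strand: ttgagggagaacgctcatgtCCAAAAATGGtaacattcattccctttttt
CNN2, 89 bases before the start, chr19:1026499-1026548, plus strand: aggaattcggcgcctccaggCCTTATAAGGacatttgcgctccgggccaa
TPM4, 173 bases before a start, chr19:16067345-16067394, plus strand: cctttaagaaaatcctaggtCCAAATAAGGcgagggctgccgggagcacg
FLNA, 94 bases before the start, chrX:154374699-154374748, minus strand: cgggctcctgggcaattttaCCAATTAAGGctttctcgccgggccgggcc

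The same element thus stood before genes that fell after GAR1 knockdown (SRF), fell after dyskerin knockdown (ACTG1), rose after dyskerin knockdown (FHL2) and did not pass (EGR1, EGR2, ACTN1, CNN2, TPM4 and FLNA). A match is a description of letters and not a measured binding site. The TEAD motif GGAATG, on either strand, stood in a window of 13 of the 28 genes (46.4%), against 16.7% of all genes in the table. Counted by window, the shares were 27.5% and 14.0%. Among the YAP targets with a window the motif was found in AMOTL2, CCN2, ANKRD1, LATS2 and AJUBA, with 3 matches in the single CCN2 window. The other members with the motif were FHL2, CALD1, EGR2, VCL, ACTA2, ACTN1, MRTFB and MYH9, which are not in the group of YAP targets.

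The wider pathways were read from 5 lists of 97 further genes, 91 of them tested. Of the 91, 13 passed for siDyskerin over siControl (14.3%, beside 6.40% of all genes tested), 6 for siGAR1 over siControl (6.59%, beside 3.42%) and 7 for siDyskerin over siGAR1 (7.69%, beside 5.39%). Of these calls, 3, 2 and 2 held without each library in turn. Of 20 genes of the Hippo core, 2 passed higher and 2 lower after dyskerin knockdown (median -0.00) and 1 lower after GAR1 knockdown (median 0.03). NF2, which encodes merlin, an upstream activator of the LATS kinases, had 45103, 44476 and 41834 normalized counts in siDyskerin, 62448, 59868 and 53128 in siGAR1, and 75393, 69018 and 75329 in siControl, with no overlap between groups. NF2 fell by 0.74 on the log2 scale after dyskerin knockdown (standard error 0.07, adjusted p = 9.2e-06), in each of the 17 alternatives too. Its fall of 0.32 after GAR1 knockdown (adjusted p = 0.0083) was lost without any 1 of the 9 libraries (adjusted p up to 0.037), and its difference between the knockdowns, -0.42 (adjusted p = 0.0012), was lost without siDyskerin replicate 3 (0.011). The Hippo genes MOB1B (-0.42, adjusted p = 0.0025), PTPN14 (0.33, 0.0030) and AMOTL1 (0.31, 0.0032) also passed after dyskerin knockdown. MOB1B was lost without siDyskerin replicate 1 or 2 or siControl replicate 2 or 3, PTPN14 without siDyskerin replicate 1 or 3 or siControl replicate 2, and AMOTL1 without any 1 siDyskerin library or siControl replicate 2 or 3. MOB1B, which encodes a coactivator of the LATS kinases, was also lower in siDyskerin than in siGAR1 (-0.45, adjusted p = 0.0021), a call lost without siDyskerin replicate 1. Among 15 of 17 further YAP targets that were tested, 1 passed higher and 1 lower after dyskerin knockdown and 1 lower after GAR1 knockdown, and CRIM1, a transmembrane regulator of growth factors, was lower in siDyskerin than in siGAR1, at -0.57 (adjusted p = 6.0e-05). Against siControl the passing YAP targets were GADD45B (0.48, adjusted p = 0.0033) and CRIM1 (-0.31, 0.0038) after dyskerin knockdown and TGFB2, a ligand of the TGF-beta receptors (-0.42, 0.0059), after GAR1 knockdown. GADD45B was lost without siDyskerin replicate 2 or 3 or siControl replicate 2 or 3, CRIM1 without any 1 siDyskerin library or siControl replicate 2 or 3, and TGFB2 without siGAR1 replicate 1 or 2 or siControl replicate 2 or 3. Of 7 ternary complex factors and regulators, 6 were tested and none passed against siControl, while ELK3 was higher in siDyskerin than in siGAR1 (0.35, adjusted p = 0.0051), a call lost without any 1 library of those groups.

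Of 29 further contractile and adhesion genes tested, 2 passed higher and 1 lower after dyskerin knockdown (median -0.02), and 2 higher after GAR1 knockdown (median -0.05). ITGB1, the beta subunit of most fibronectin and collagen receptors, had 81270, 92259 and 88063 normalized counts in siDyskerin, 81444, 85090 and 88734 in siGAR1, and 53760, 57257 and 53399 in siControl. Both knockdowns stood above siControl in every library: ITGB1 rose by 0.67 after dyskerin knockdown (adjusted p = 9.2e-06) and by 0.63 after GAR1 knockdown (adjusted p = 4.1e-05) on the log2 scale, in comparisons that share the siControl libraries. MYL12A, a non-muscle paralog of MYL9, had 17314, 19940 and 18862 normalized counts in siDyskerin, 26699, 26221 and 24526 in siGAR1, and 18788, 19022 and 18465 in siControl. It rose by 0.46 after GAR1 knockdown (adjusted p = 5.9e-04), in the direction opposite to MYL9, and stood at -0.00 after dyskerin knockdown (adjusted p = 0.98) and at -0.46 for siDyskerin over siGAR1 (adjusted p = 3.4e-04). TNS1, a focal adhesion protein (0.52, adjusted p = 0.0017), and PDLIM5 (-0.28, 0.0058) passed after dyskerin knockdown. TNS1 was lost without siDyskerin replicate 3 or siControl replicate 2 or 3, and PDLIM5 without any 1 library of those groups. ENAH, an actin filament elongation factor, was higher in siDyskerin than in siGAR1 (0.28, adjusted p = 0.0076), lost without any 1 library except siControl replicate 1. Of 21 further immediate early genes tested, 3 passed higher and 1 lower after dyskerin knockdown (median 0.12), and 1 higher and 1 lower after GAR1 knockdown (median 0.11). KLF6, a zinc finger factor, rose by 0.41 after dyskerin knockdown (adjusted p = 5.1e-04), in each of the 17 alternatives too. ARC (0.48, adjusted p = 0.0044), BTG2 (0.39, 0.00995) and IER5 (-0.34, 0.0087) passed after dyskerin knockdown, and KLF10 (0.35, 0.0036) and JUND (-0.52, 0.0044) after GAR1 knockdown. ARC was lost without siDyskerin replicate 1 or 3 or siControl replicate 1 or 3, KLF10 without siGAR1 replicate 1 or 2 or any 1 siControl library, and BTG2, IER5 and JUND without any 1 library of the groups compared. For BTG2 leaving out siGAR1 replicate 1 or 2 and for IER5 leaving out siGAR1 replicate 1 also ended the call. FOSL1 was lower in siDyskerin than in siGAR1 (-0.37, adjusted p = 0.0068), lost without siDyskerin replicate 2 or 3, siGAR1 replicate 1 or 2 or siControl replicate 3.

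**Figure D5:**
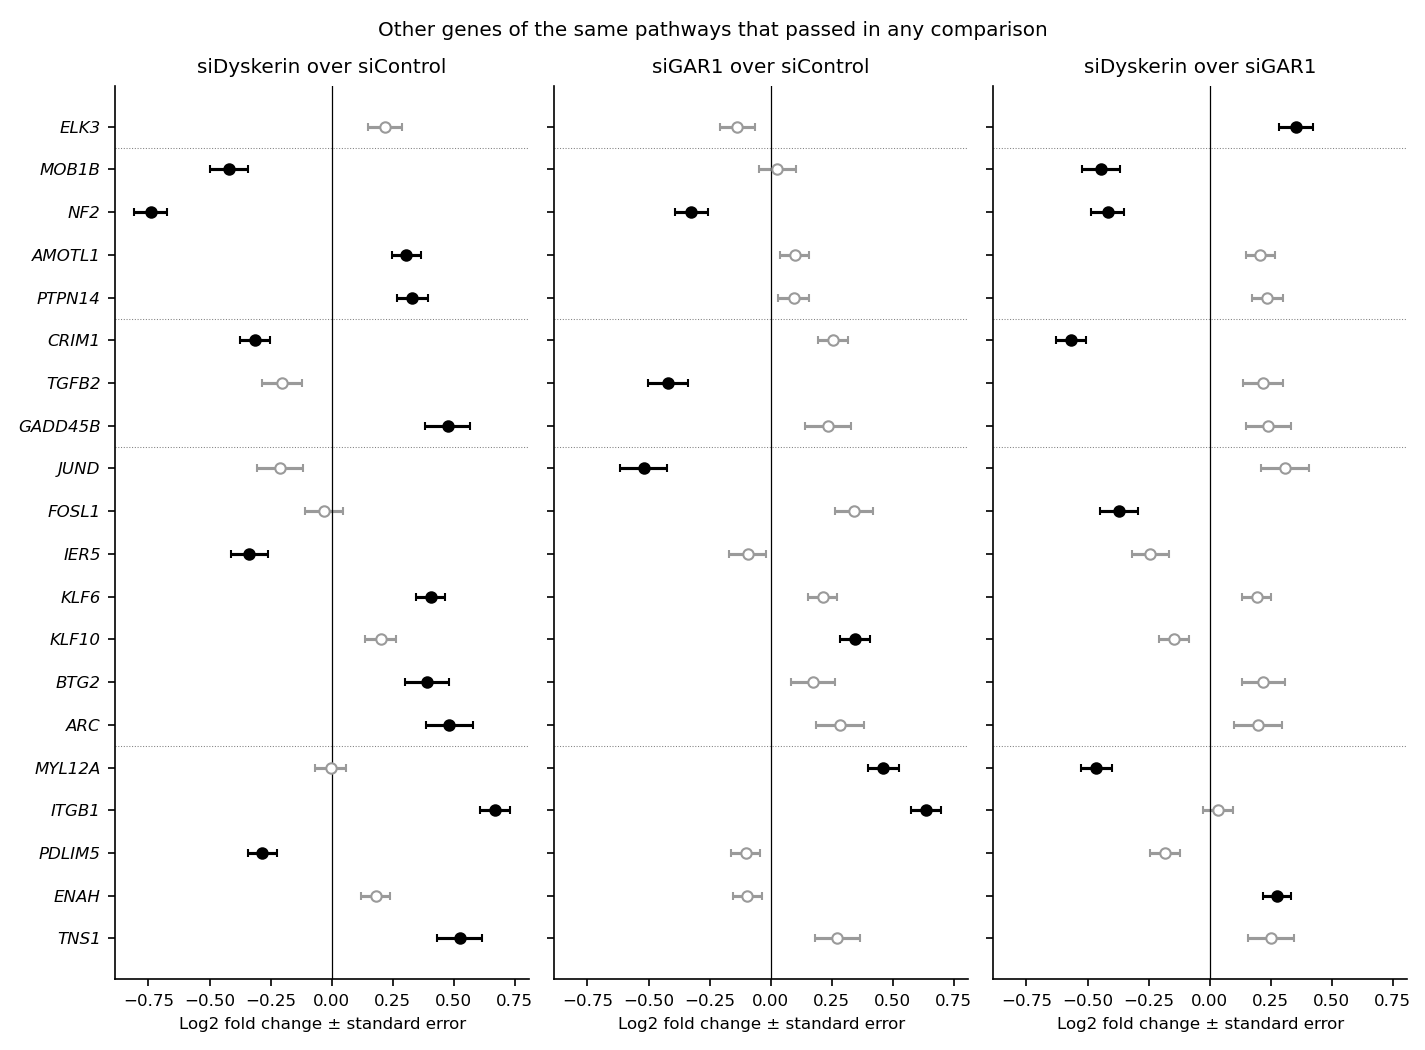
Log2 fold change (horizontal axis) of the pathway genes outside the 33 that passed in any of 3 comparisons, with bars of ± 1 standard error from edgeR (3 libraries per group) and filled points for an adjusted p under 0.01. Dotted lines part the lists, from ternary complex factors at the top to contractile and adhesion genes at the bottom; NF2 lies left of 0 for siDyskerin over siControl and ITGB1 right of 0 in both knockdowns.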

How the data were processed

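Per the labels, nuclear RNA depleted of ribosomal RNA was sequenced. The submitters' processing notes name FastQC 0.11.9, Trim Galore 0.6.4, Bowtie2 2.4.1, STAR 2.7.0e and Salmon 1.2.0. For each transcript of GENCODE 27 on GRCh38 the authors deposited Salmon's estimated counts, TPM values and lengths. Of 200401 transcripts, 195887 were matched by identifier to GENCODE 44, and the 4514 others, with 3.69 to 3.84% of reads, were left out. In 99.9 to 100% of 2258 nested pairs the longer transcript had at least as many reads as the shorter, so shared reads count more than once. Estimated counts were rounded, summed per gene, filtered with filterByExpr, scaled by edgeR's TMM (0.982 to 1.02) and tested with edgeR 4.0.16 in R 4.3.3 in 1 fit of all 9 libraries, with Benjamini-Hochberg adjustment over 18444 genes and a threshold of 0.01. The biological coefficient of variation was 0.0886. Transcript usage was tested with diffSpliceDGE on 104054 transcripts of 12644 genes. Scripts were tested on simulated data, in which transcripts did not share reads.

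The alternatives were DESeq2 1.42.0, its size factors, no count filter, length-scaled TPM counts, protein-coding transcripts, the most-read transcript, 2-group fits, a replicate block and leaving out each library. For genes outside the 33 they were added after seeing the data. Members and lists were chosen with earlier results of these data known. All members are named, with every library's value for those that passed, SRF, its cofactors, both cytoplasmic actins and the immediate early genes. Up to 4 passing genes per pathway list and comparison are named by smallest p, with every library's value for NF2, ITGB1 and MYL12A only. Values per library of CALD1, CCN1 and FLNA, the fold changes of MYH11 and MYL12B, and the choice of promoter stretches, came after values were seen. One list of pathway genes is not reported here.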

Additional observations from a re-analysis of the deposited data

Results flagged for a closer look

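CNN1 and LATS2 had opposite signs in the 2 knockdowns, each with an unadjusted p under 0.05 against siControl, and differed between them by a direct test. They were flagged for meeting these conditions, so the direct test is no separate support. Of all genes tested, 26.1% had such a p for siDyskerin and 24.0% for siGAR1 over siControl. How many of all genes met all the conditions together was not counted. Whether such genes are more frequent among the members therefore cannot be told. Neither gene passed after GAR1 knockdown (edgeR adjusted p = 0.011 for CNN1 and 0.061 for LATS2). The direct log2 difference of CNN1, siDyskerin over siGAR1, was 1.15 (edgeR adjusted p = 3.0e-06). Over siControl CNN1 had 0.75 in siDyskerin and -0.40 in siGAR1, in 3 of 3 libraries of each. For LATS2 the direct difference was -0.75 (edgeR adjusted p = 1.0e-04), with -0.48 in siDyskerin and 0.28 in siGAR1 over siControl, also in 3 of 3 libraries of each. Both knockdowns were set against the same siControl libraries.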

How the results depend on the processing

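The number of members passing after dyskerin knockdown was 4, and 7 with no low-count filter. After GAR1 knockdown it was 4, and 7 with DESeq2 and 7 with no low-count filter. Leaving out 1 library at a time gave 3 to 5 members after dyskerin knockdown, 3 to 5 after GAR1 knockdown and 5 to 8 between the knockdowns. How many of all genes passed in each alternative was not counted. Whether a rise in the counts of this paragraph is particular to the members therefore cannot be told. No member that passed changed direction in any alternative. Over the 17 alternatives the members' calls were kept 63 of 68 times after dyskerin knockdown, 64 of 68 times after GAR1 knockdown and 110 of 119 times between the knockdowns, and alternatives added 12, 14 and 9 calls. For EGR2 after GAR1 knockdown, DESeq2 and the 2-group fit gave no adjusted p. The causes were not tested. Whether the replicate numbers pair the libraries was not tested. In their deviations, same-numbered libraries correlated at 0.04 to 0.10 for siDyskerin with siControl. The values were -0.07 to 0.04 for siGAR1 with siControl and -0.01 to 0.07 for siDyskerin with siGAR1. Libraries with different numbers correlated at -0.09 to 0.02, -0.06 to 0.06 and -0.10 to 0.05 in the same order. Same-numbered values thus lay above all others for siDyskerin with siControl and overlapped with them in the other comparisons. With the replicate block 5, 5 and 8 members passed in the 3 comparisons, in place of 4, 4 and 7. With 3 libraries per group, few reads limit EGR2, EGR3, FOSB and ACTA2. Transcript usage calls were 0 in each alternative.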
